A study of Mus musculus with 10 samples.

Results

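Nuclear receptors are transcription factors that are switched by small lipophilic ligands or, for the orphan receptors, work without a known natural ligand. The mouse genes that encode them were examined here as 1 set of 46 genes, from the retinoic acid receptors to the orphan NR4A receptors, in a table of chromatin regions whose accessibility differed between the atrial cardiomyocytes of Tbx5G125R and control mice. A region was assigned to a receptor gene where it overlapped the span of that gene in the annotation, or where it lay outside every protein-coding span and the receptor gene was the nearest one within 100 kb. By this rule 65 of the 10010 regions in the table belonged to 30 of the 46 genes, and 1 region was shared by Nr1d1 and Thra, whose ends meet.

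The study used the assay for transposase-accessible chromatin with sequencing (ATAC-seq), in which a transposase inserts adapters where DNA is open, on nuclei from the atria of each animal. The nuclei were sorted for PCM1, a protein that marks the cardiomyocyte nucleus. Animals were 8 to 12 weeks old, with 4 of each genotype. Tbx5G125R animals carried on 1 allele a point mutation, p.G125R, that had been introduced with CRISPR-Cas9 into the T-box transcription factor gene Tbx5 in the germline and so was present in every cell, and controls did not carry it. Of the 4 control animals, 2 had been sequenced as 2 libraries each, and these were summed, so that 10 libraries gave 8 animals. Counts over all regions in the table ranged from 630392 to 2776475 per animal, with the shallowest in control animal 2, whose values are the least precise by counting alone.

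Most receptors of this superfamily bind DNA as dimers at hexamers close to AGGTCA, and several of them, the retinoic acid, thyroid hormone, vitamin D and PPAR receptors among others, share RXR as their partner. In the heart, PPARα and the oestrogen-related receptors are known for control of fatty acid oxidation and mitochondrial genes, the REV-ERB and ROR receptors for the circadian clock, the thyroid hormone and corticosteroid receptors for hormonal control of contraction and electrolytes, and COUP-TFII (Nr2f2) for atrial identity. The NR4A receptors are immediate early genes, transcribed within minutes of a stimulus. Accessibility measures how open the DNA at a gene is and not the level of its transcript, which was not analysed here.

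Promoter sequences were read from RefSeq (build GRCm38.p6) for 42 of the 46 genes, and Nr3c1 and Thra were among those without one. Regions in the table lay over promoters of 15 of the 42, in 18 windows. The 250 bases before the start site are printed for 7 of these genes, 5′ to 3′ on the strand of the gene. In the 3 NR4A promoters, shown because all 3 genes of this family had a gained region at the start, capitals mark TGACG or its reverse complement CGTCA, the core of the element through which cAMP signalling is known to act on such genes. The windows are chr15:101266596-101266845 (plus strand) for Nr4a1, chr2:57124004-57124253 (minus strand) for Nr4a2 and chr4:48045055-48045304 (plus strand) for Nr4a3.
Nr4a1: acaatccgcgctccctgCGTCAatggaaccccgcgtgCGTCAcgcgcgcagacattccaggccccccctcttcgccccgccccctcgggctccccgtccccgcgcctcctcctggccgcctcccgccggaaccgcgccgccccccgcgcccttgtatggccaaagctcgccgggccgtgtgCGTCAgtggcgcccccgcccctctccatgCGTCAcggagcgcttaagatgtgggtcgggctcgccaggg
Nr4a2: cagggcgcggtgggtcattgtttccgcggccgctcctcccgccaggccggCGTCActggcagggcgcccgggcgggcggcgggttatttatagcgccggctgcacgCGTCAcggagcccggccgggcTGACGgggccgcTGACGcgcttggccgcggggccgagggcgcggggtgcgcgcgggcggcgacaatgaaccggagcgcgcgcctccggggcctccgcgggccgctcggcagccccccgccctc
Nr4a3: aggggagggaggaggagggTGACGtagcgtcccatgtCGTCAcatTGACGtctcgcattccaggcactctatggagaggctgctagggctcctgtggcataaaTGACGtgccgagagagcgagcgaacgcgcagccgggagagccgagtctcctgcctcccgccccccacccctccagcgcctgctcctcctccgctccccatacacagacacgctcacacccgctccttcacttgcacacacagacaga
Each of them held 4 such matches. Capitals in Esrra (chr19:6921809-6922058, minus strand) and Ppara (chr15:85735526-85735775, plus strand), the promoters with the largest gains after that of Nr1d1, mark the GC box GGGCGG or its complement CCGCCC.
Esrra: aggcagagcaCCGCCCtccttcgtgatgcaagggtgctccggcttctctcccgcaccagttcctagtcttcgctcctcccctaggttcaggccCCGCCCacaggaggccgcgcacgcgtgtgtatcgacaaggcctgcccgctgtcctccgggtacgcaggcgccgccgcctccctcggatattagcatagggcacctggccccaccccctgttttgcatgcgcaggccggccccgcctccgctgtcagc
Ppara: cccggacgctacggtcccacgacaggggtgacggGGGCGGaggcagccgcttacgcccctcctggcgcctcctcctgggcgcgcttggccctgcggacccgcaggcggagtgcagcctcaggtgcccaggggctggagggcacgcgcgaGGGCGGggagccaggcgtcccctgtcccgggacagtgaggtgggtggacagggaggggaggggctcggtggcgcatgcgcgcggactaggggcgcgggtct
Nr1h3 (chr2:91195117-91195366, minus strand) is shown for its match, in capitals, to AGGTGT, the core of the site bound by T-box factors such as Tbx5, and Nr1d1 (chr11:98775378-98775627, minus strand), the promoter with the largest gain, because it held none of the 4 motifs searched.
Nr1h3: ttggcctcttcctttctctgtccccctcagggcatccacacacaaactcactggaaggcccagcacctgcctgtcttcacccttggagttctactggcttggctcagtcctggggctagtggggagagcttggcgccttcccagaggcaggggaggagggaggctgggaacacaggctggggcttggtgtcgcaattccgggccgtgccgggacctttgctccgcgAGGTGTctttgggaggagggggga
Nr1d1: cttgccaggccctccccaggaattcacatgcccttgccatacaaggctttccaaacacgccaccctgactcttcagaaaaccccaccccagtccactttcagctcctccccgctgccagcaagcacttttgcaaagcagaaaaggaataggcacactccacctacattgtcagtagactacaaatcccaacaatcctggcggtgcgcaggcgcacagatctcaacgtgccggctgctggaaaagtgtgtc

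These motifs were searched on both strands, and none of the 4 contains another. TGACG was found in 7 of the 18 receptor windows, against 17.8% of the 32851 promoter windows of the genome and 35.0% of the 3693 windows that a gained region overlapped. In those 3693 windows, 4 or more matches occurred in 0.704%. GGGCGG was present in 14 of the 18, against 32.7% of all windows and 72.5% of those at gained regions. AGGTGT was found in 2 overlapping windows of Nr1h3 alone (11.8% of all windows, 8.26% at gained regions), and AGGTCA in 0 of the 18 (14% and 9.31%). The motifs were chosen with the results known, and a match is a description of letters, not a site that is known to be bound.

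Accessibility rose in Tbx5G125R animals at 59 of the 65 receptor regions and fell at 6, a split of 90.8% against 9.23%. Of all 10010 regions, 8846 (88.4%) rose and 1164 (11.6%) fell, so the balance at receptor genes was near that of the background. The paper reports the same number of gained sites but fewer lost ones than this table holds. Every region of the table had been selected by the study as different between these same animals, and all 10010 (100%) passed the edgeR quasi-likelihood test used here (Benjamini-Hochberg adjusted p under 0.05), so a call by itself adds nothing. Nuclei were pooled, so a region open in more nuclei and one more open in each nucleus cannot be told apart. The median change of gained receptor regions was 0.76 on the log2 scale (n = 59), the same as the 0.76 over all gained regions, and that of the lost ones was -1.0 (n = 6), beside -0.97 over all lost regions. A gain of 2-fold or more was seen at 6 receptor regions (10.2% of 59), against 23.1% of all gained regions. These 6 were 4 regions of Rarb, 1 of Rara and the promoter of Nr1d1.

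Which direction a region takes depends on how the genotypes are set against each other, because the table holds no regions that did not change. Main values rest on a single offset matched to the deposited fold changes, under which the median region of the table was higher in Tbx5G125R by 0.72. When the median region is placed at 0 instead, here called the table median scale, a positive value means a larger gain than the typical region. On that scale 38 of the 59 gained receptor regions lay above 0 and 21 (35.6%, beside 38.0% of all gained regions) below it. Only 4 receptor regions (6.15%) were then called higher, against 8.55% of the table, and these were 3 regions of Rarb and the Nr1d1 promoter. The 6 lost regions were called lower on that scale too, where 12.3% of the table was.

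**Figure D1:**
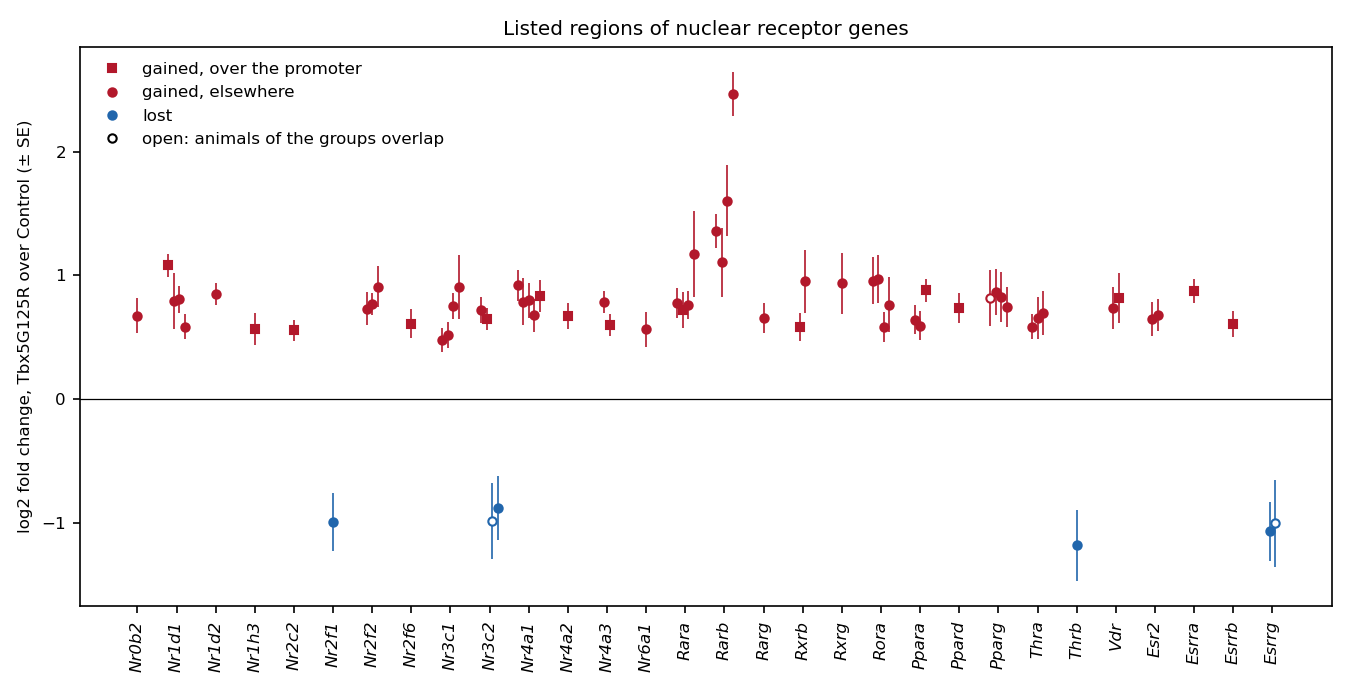
Log2 fold change (Tbx5G125R over control, ± SE, n = 4 animals each) of all 65 listed regions at the 30 receptor genes that had one. Squares lie over promoters, and open symbols mark the 3 regions whose animals overlap between the genotypes. The Rarb regions reach 2.46, and all 6 lost regions lie between -1.18 and -0.88.

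A listed region was found at 65.2% of receptor genes, against 27.8% of the 21887 protein-coding genes. Receptor genes have longer spans (median 48.4 kb, against 17.2 kb), and a longer gene takes up more regions by the rule used, so the higher share was not separated from length. Among receptor genes themselves, those with a region had a median span of 44.3 kb and those without one 57.9 kb. The upper quartiles went the other way, at 124.4 and 94.6 kb, as did the longest spans, at 734.8 and 393.6 kb. Lost regions were found at 4 of the 46 genes (8.7%, against 3.44% of all coding genes). The 16 genes without a region were Rxra, Rorb, Esr1, Pgr, Nr0b1, Nr1h2, Nr1h4, Nr1i2, Nr1i3, Nr2c1, Nr2e1, Nr2e3, Nr5a1, Nr5a2, Hnf4a and Hnf4g. Whether their chromatin is closed or open without a change cannot be read from the table.

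**Figure D2:**
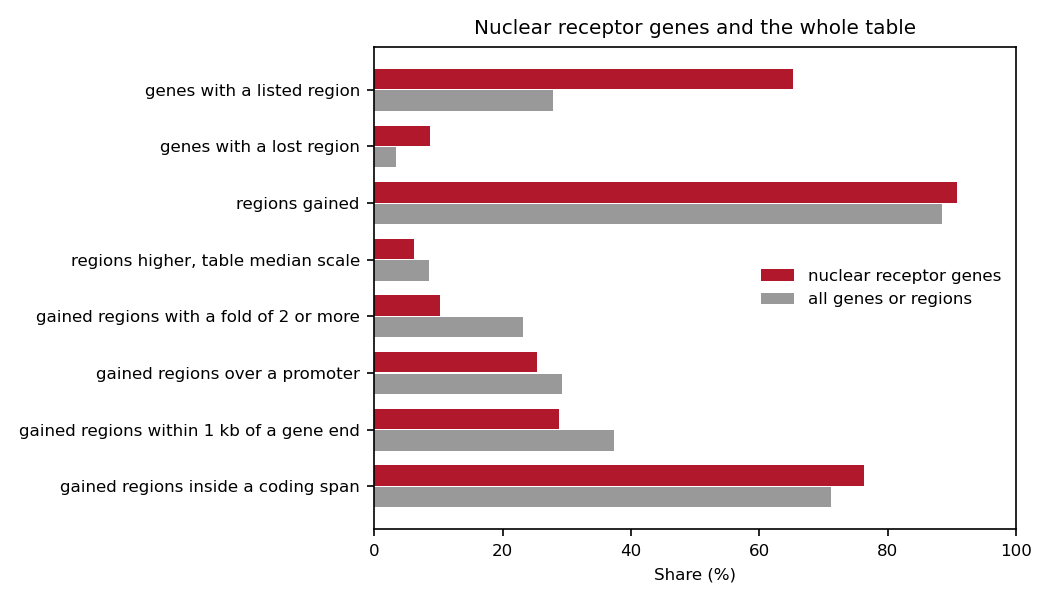
Share in percent for the receptor genes (red) and for all coding genes or all listed regions (grey). A listed region was found at 65.2% of receptor genes against 27.8% of all, 90.8% against 88.4% of regions were gained, and 10.2% against 23.1% of the gains reached 2-fold.

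Rarb, which encodes retinoic acid receptor β, held 4 regions inside its span of 651.5 kb, and these had the highest, the second, the third and the fifth largest gains of all receptor regions. At chr14:17004751-17006000 the scaled counts (counts divided by a size factor of each animal) were 38.8, 34.8, 31.0 and 27.9 in control animals 1 to 4 and 204, 138, 200 and 198 in Tbx5G125R animals 1 to 4. Every mutant animal was well above every control, and animal 2 was the lowest of the mutants. The mean rose from 33.1 ± 4.73 to 185 ± 31.7 (SD, n = 4). On the log2 scale this was a change of 2.46 with a standard error (SE) of 0.18 (edgeR adjusted p = 3.14e-11), and it ranked 64th of the 8846 gained regions. Its centre lies at -430.02 kb from the nearest start site in the promoter table, still inside the annotated span of the gene.

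The other Rarb regions had smaller gains. Scaled counts at chr14:16738501-16739250 were 15.1, 30.2, 13.7 and 19.0 in controls and 42.1, 53.9, 61.1 and 56.1 in Tbx5G125R (log2 fold change 1.61 ± 0.29, SE, edgeR adjusted p = 1.40e-05). In the region at chr14:16454751-16456500, the values were 104, 83.6, 102 and 68.5 against 195, 241, 245 and 266 (1.36 ± 0.14, edgeR adjusted p = 7.79e-09). The fourth, at chr14:16551501-16552250, gave 37.1, 39.5, 29.99 and 8.87 against 72.4, 70.3, 62.1 and 46.4 (1.11 ± 0.28, edgeR adjusted p = 0.000592). The genotypes did not overlap in any of the 4, and control animal 4 was the lowest control in 3 of them. On the table median scale the changes were 1.77, 0.91, 0.67 and 0.41, in the same order, the last of which was not called (edgeR adjusted p = 0.371).

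**Figure D3:**
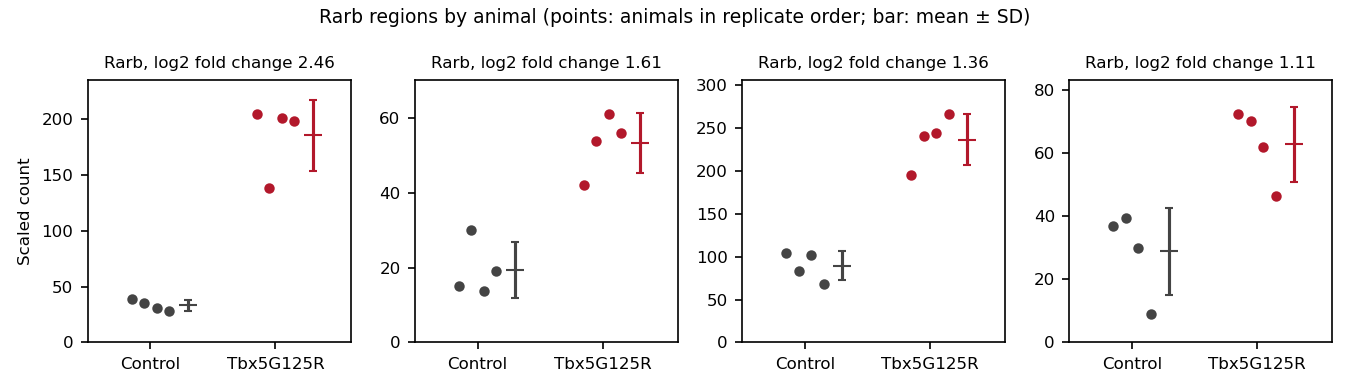
Scaled counts of the 4 Rarb regions in each animal, from the largest to the smallest log2 fold change, with mean ± SD (n = 4 animals each). In all 4 regions the lowest Tbx5G125R animal lies above the highest control, by the widest margin in the first, where 138 compares with 38.8.

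The other retinoic acid receptors gained less. Rara had 4 gained regions, 1 of them over its promoter, where scaled counts were 95.6, 88.3, 80.3 and 92.6 in controls and 172, 135, 150 and 132 in Tbx5G125R (0.72 ± 0.15). The largest change of Rara, at chr11:98962251-98962750, came from low counts of 15.6, 20.9, 13.2 and 12.7 against 35.5, 22.2, 53.6 and 24.2 (1.18 ± 0.35, edgeR adjusted p = 0.00219). There the lowest mutant animal at 22.2 was next to the highest control at 20.9. Rarg, the third member, had a single gained region (0.65 ± 0.12), which lay at -0.04 on the table median scale. Of the RXR partners, Rxrb gained at its promoter (0.58 ± 0.11, and -0.11 on the table median scale) and at a region inside the gene with counts of 25.5, 20.9, 22.9 and 38.0 against 55.3, 52.0, 53.6 and 46.4 (0.95 ± 0.25). Rxrg gained at 1 region 46.4 kb before its span, with 42.3, 48.8, 22.9 and 25.4 in controls and 68.5, 57.8, 71.5 and 58.0 in Tbx5G125R (0.94 ± 0.24).

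The genes of retinoid metabolism, which make, carry and degrade the ligand of these receptors, were mostly without a listed region. Of 18 such genes 2 had one (27.8% of all coding genes did, a share against which the gene lists below can be read, with gene length not taken into account), both gained and both above 0 on the table median scale, Cyp26b1, a retinoic acid hydroxylase, at 2.82 and Stra6, a retinol transporter, at 1.32. Both came from low counts, which summed over the 2 regions were 34.1 to 54.5 in controls and 107 to 165 in Tbx5G125R.

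REV-ERBα (Nr1d1) and REV-ERBβ (Nr1d2) repress transcription in the negative limb of the clock. Nr1d1 showed the largest change of any receptor promoter, in the widest receptor region, 4000 bases at chr11:98772501-98776500 that cover the start site and much of the gene. The scaled counts were 238, 290, 252 and 273 in controls and 569, 528, 506 and 596 in Tbx5G125R, with no overlap (1.08 ± 0.09, edgeR adjusted p = 4.57e-10). On the table median scale the change was 0.39 (edgeR adjusted p = 0.00149). A pair of regions 6.12 and 6.87 kb upstream of the gene gained 0.80 ± 0.23 and 0.81 ± 0.11. Nr1d2 gained just inside its start, from 367, 392, 337 and 358 to 711, 580, 639 and 675 (0.85 ± 0.09, edgeR adjusted p = 7.68e-09), and at 0.16 on the table median scale it was not called there (adjusted p = 0.244). Rora, which activates the elements that the REV-ERB receptors repress, had 4 gained regions within its span of 734.8 kb (0.58 to 0.97), of which 1 was below 0 on the table median scale. At the largest of them counts were 51.0, 51.1, 64.0 and 45.6 in controls and 82.9, 122, 129 and 87.1 in Tbx5G125R.

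Among 18 partner genes of these receptors in the clock, 13 had a listed region (27.8% of all coding genes), and all 36 of their regions were gained (88.4% of the table; median 0.78), although 11 lay below 0 on the table median scale. Per1, Cry2 and Hlf had 5 regions each, with gains of up to 1.13 at Per1.

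All 3 NR4A genes, whose promoter sequences are printed above, gained accessibility at the promoter, and the family had 8 gained regions and 0 lost ones (0.60 to 0.92), of which 3 were below 0 on the table median scale. Nr4a1, also known as Nur77, had 5 of them. At its promoter the counts were 145, 174, 167 and 151 in controls and 258, 226, 278 and 361 in Tbx5G125R (0.83 ± 0.13, edgeR adjusted p = 2.23e-06). Its largest change, at -20.1 kb from that start site, went from 118, 181, 139 and 161 to 263, 256, 298 and 274 (0.92 ± 0.12). Nr4a2 rose from 242, 265, 316 and 235 to 405, 399, 452 and 441 over its promoter (0.67 ± 0.10, and -0.02 on the table median scale). For Nr4a3 a region that ends 55 bases before the start site gave 346, 409, 351 and 330 against 508, 580, 548 and 515 (0.60 ± 0.09, and -0.09 on the table median scale), and a second one upstream gave 446, 562, 445 and 465 against 782, 786, 802 and 885 (0.78 ± 0.09). In each of these regions all mutant animals were above all controls.

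Of 19 other immediate early genes, outside the NR4A family, 14 had a region (27.8% of all coding genes), with 25 gained (88.4% of the table) and 3 lost (median 0.72), and 8 of the gained ones were below 0 on the table median scale. Fos had 5 gained regions, Btg2 had 2 gained and 2 lost, and Ier3 had 3 gained.

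PPAR genes encode receptors for fatty acids, and all 3 had gained regions, 8 in all (0.59 to 0.88), with 2 below 0 on the table median scale. Over the promoter of Ppara, the α form, best known for fatty acid oxidation in heart and liver, counts rose from 355, 362, 341 and 417 to 629, 609, 716 and 740 (0.88 ± 0.09, edgeR adjusted p = 7.97e-09). A further pair of Ppara regions, 9.41 and 63.9 kb upstream of the gene, gained 0.59 ± 0.12 and 0.64 ± 0.12, and both were below 0 on the table median scale. Ppard gained at its promoter from 141, 156, 142 and 141 to 213, 270, 201 and 271 (0.74 ± 0.12). Pparg, the γ form best known from fat, had 4 gained regions, 3 of them inside the distal part of the gene and none over its promoter. The largest gave 45.8, 48.8, 71.7 and 52.0 against 98.7, 109, 89.3 and 109 (0.86 ± 0.19). At another, chr6:115462751-115463250, the genotypes overlapped, since control animal 2 at 74.3 was above Tbx5G125R animal 4 at 62.9 (0.82 ± 0.22). This was the only 1 of the 59 gained receptor regions with an overlap, so that 98.3% were separated, against 95.3% of all gained regions. The fat markers Adipoq and Plin1 had no listed region.

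The oestrogen-related receptors drive genes of mitochondria and energy metabolism, and here the family went both ways. Esrra gained at its promoter, from 429, 325, 331 and 427 to 675, 657, 726 and 735 (0.88 ± 0.09, edgeR adjusted p = 1.59e-08). Esrrb gained at its promoter from 212, 172, 205 and 195 to 333, 284, 281 and 320 (0.61 ± 0.11), which was -0.08 on the table median scale. Esrrg, the γ form, had no gained region and 2 lost ones inside its span of 606.4 kb. At chr1:187907751-187908500 counts fell from 71.8, 62.7, 67.1 and 65.9 to 47.4, 19.3, 33.9 and 29.99, and all controls were above all mutants (-1.07 ± 0.24, edgeR adjusted p = 0.000154). At chr1:188093751-188094250 they were 47.5, 9.29, 40.2 and 26.6 against 15.8, 15.4, 13.2 and 23.2. Here control animal 2 was lower than every mutant animal, so the groups overlapped, and the fall of 1.01 ± 0.35 (edgeR adjusted p = 0.00792) became -0.76 with an adjusted p of 0.0542 when control animal 1 was left out.

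Targets shared by PPAR and the oestrogen-related receptors in fatty acid oxidation and transport had a region at 11 of 24 genes. Of these regions 13 were gained (88.4% of the table was) and 3 lost (median 0.58), with 7 of the gained below 0 on the table median scale. Fabp3, a fatty acid carrier of heart muscle, had 3 gained regions. All 3 lost ones were at Lpl, lipoprotein lipase, down to -1.64, beside 1 gained region there. Coregulators, the proteins through which receptors act on chromatin, had regions at 14 of 25 genes. Of these regions 30 were gained (88.4% of the table was) and 2 lost (median 0.70), and 13 of those gained were below 0 on the table median scale. Ppargc1a, a coactivator of PPARα and the oestrogen-related receptors, had 7 gained regions (0.62 to 1.40).

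The corticosteroid receptors had 8 regions. Nr3c1, the glucocorticoid receptor, had 4 gained regions (0.48 to 0.91), 3 of them close together inside the gene, and 2 of these were below 0 on the table median scale. The fourth, 33.6 kb outside the span, gave the largest change from low counts, 24.9, 30.2, 22.9 and 26.6 against 52.7, 53.0, 37.6 and 48.4 (0.91 ± 0.26). Nr3c2, the mineralocorticoid receptor, was the only receptor gene with both gained and lost regions. Its promoter gained from 389, 418, 386 and 398 to 537, 597, 708 and 630 (0.65 ± 0.09, and -0.04 on the table median scale), and a region at -3.08 kb from that start site gained from 266, 251, 248 and 199 to 336, 416, 405 and 432 (0.72 ± 0.11). Both lost regions lay inside the gene. At chr8:77121251-77121750, 219 kb after the start site, counts were 60.8, 67.3, 42.2 and 40.6 against 21.1, 30.8, 32.0 and 27.1 (-0.88 ± 0.26, edgeR adjusted p = 0.00200). At chr8:76927501-76928000, 25.4 kb after it, they were 48.1, 30.2, 41.2 and 29.2 against 15.8, 30.8, 16.0 and 14.5 (-0.99 ± 0.31, edgeR adjusted p = 0.00359). Mutant animal 2 stood apart from the other mutants in the second of these and overlapped the controls.

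Of 15 genes known to respond to glucocorticoids or mineralocorticoids, 8 had a listed region. Of these regions 23 were gained (88.4% of the table was) and 20 lost, with 8 of the gained below 0 on the table median scale. All 20 lost regions were at Zbtb16, a zinc finger repressor that also had 2 gained regions. Dusp1, a phosphatase of MAP kinases, had 9 gained regions.

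The thyroid hormone receptors also went both ways. Thra, the α form, gained at 2 regions inside the gene (0.66 ± 0.17 and 0.69 ± 0.18) and at the region it shares with the end of Nr1d1, whose counts were 343, 307, 330 and 255 against 532, 492, 461 and 394 (0.59 ± 0.10). On the table median scale these were -0.036, 0.0013 and -0.11. Its larger own region gave 59.7, 72.0, 69.1 and 87.5 against 140, 127, 101 and 93.8, with mutant animals 1 and 2 the highest. Thrb, the β form, had 1 region, and that was lost. It lay 56.7 kb outside the span, at chr14:17602001-17602500, with 44.6, 37.2, 60.5 and 49.4 in controls and 22.4, 12.5, 19.8 and 31.9 in Tbx5G125R, with no overlap (-1.18 ± 0.29, edgeR adjusted p = 0.000377). This was the largest loss assigned to a receptor gene. The region was not assigned to Thrb when genes other than protein-coding ones were also candidates. Of 8 genes for the transport and conversion of thyroid hormone 2 had a listed region. Of these regions 2 were gained (88.4% of the table was) and 2 lost, with 1 of the gained below 0 on the table median scale.

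In the COUP-TF family, Nr2f2 gained at 3 regions (0.73 to 0.91), all above 0 on the table median scale. The region inside the gene rose from 383, 423, 388 and 344 to 678, 568, 693 and 667 (0.77 ± 0.09, edgeR adjusted p = 4.09e-08). One 42.8 kb outside the span rose from 62.6, 79.0, 88.9 and 65.9 to 121, 162, 148 and 126 (0.91 ± 0.16), and the most distant lay 84.2 kb away. Nr2f1, which encodes COUP-TFI, had 1 region, 8.63 kb upstream of the gene, and it was lost, from 55.6, 48.8, 73.2 and 50.7 to 31.6, 33.7, 27.3 and 25.1 without overlap (-0.99 ± 0.23, edgeR adjusted p = 0.000288). This region was not assigned to Nr2f1 when genes other than protein-coding ones were also candidates. Nr2f6 gained at its promoter (0.61 ± 0.12, and -0.08 on the table median scale).

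**Figure D4:**
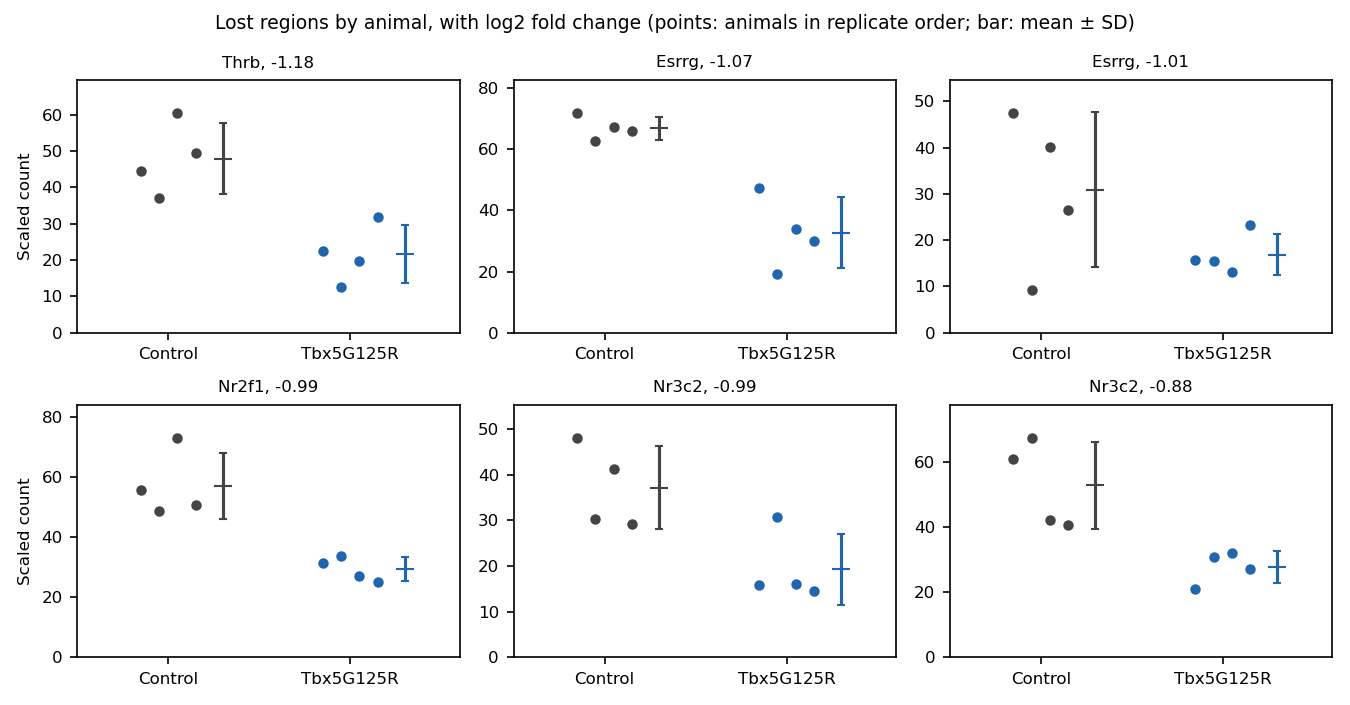
Scaled counts of the 6 lost receptor regions in each animal, ordered by log2 fold change, with mean ± SD (n = 4 animals each). Control and Tbx5G125R animals overlap in the second Esrrg region and in the first of the Nr3c2 regions and are separate in the other 4.

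The lost receptor regions were described by position, level and size of change beside all lost regions of the table. Over a promoter or within 1 kb of an end of the gene lay 0 of the 6, against 0.945% and 5.41% of all lost regions. Inside the span of the gene lay 4 (66.7%, against 63.2%). The median of their mean scaled counts in controls was 50.3, beside 52.1 over all lost regions. The genotypes did not overlap in 4 of the 6 (66.7%), against 72.9% of all lost regions, and 3 fell by 2-fold or more, where 45.3% of all lost regions did. These shares were near those of the table. All 6 were at or below a mean of 66.9 in controls, so each rests on few reads per animal.

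The remaining receptors had gained regions alone. Vdr, the vitamin D receptor, gained at its promoter from 58.5, 51.1, 40.7 and 45.6 to 108, 93.4, 71.5 and 73.5 (0.82 ± 0.20) and at a region inside the gene (0.74 ± 0.17), and both stayed above 0 on the table median scale. Nr1h3, the liver X receptor α, which senses oxysterols, gained at its promoter from 152, 109, 140 and 108 to 200, 185, 208 and 187 (0.57 ± 0.13). Sterol genes known as its targets had a region at 6 of 10. Of these regions 7 were gained (88.4% of the table was), 1 of them below 0 on the table median scale. The 3 lost were those of Lpl already given. Nr2c2, testicular receptor 4, showed the smallest promoter change (0.56 ± 0.08), and Nr6a1 (0.56 ± 0.14), Esr2 (0.65 ± 0.14 and 0.68 ± 0.13) and Nr0b2 (0.67 ± 0.14) had gains of like size. On the table median scale Nr1h3, Nr2c2, Nr6a1, Esr2 and Nr0b2 were all below 0, between -0.14 and -0.02.

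By position, 15 of the 59 gained receptor regions lay over the promoter of their gene (25.4%, against 29.2% of all gained regions over any coding promoter), 4 more within 1 kb of an end of it, 26 elsewhere inside the span and 14 outside it. Nr3c1 and Thra had no promoter window, so no region could be counted as over their promoters. Counted over any coding gene, 17 of the 59 (28.8%, against 37.4%) lay within 1 kb of a gene end and 45 (76.3%, against 71.1%) inside a coding span. All 15 at promoters were separated between the genotypes. The smallest promoter change was 0.56, the median 0.67 and the largest 1.08, beside medians of 0.77 for the regions inside the span and 0.79 for those outside. The Nr1d1 promoter was the only one above a log2 change of 0.88.

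**Figure D5:**
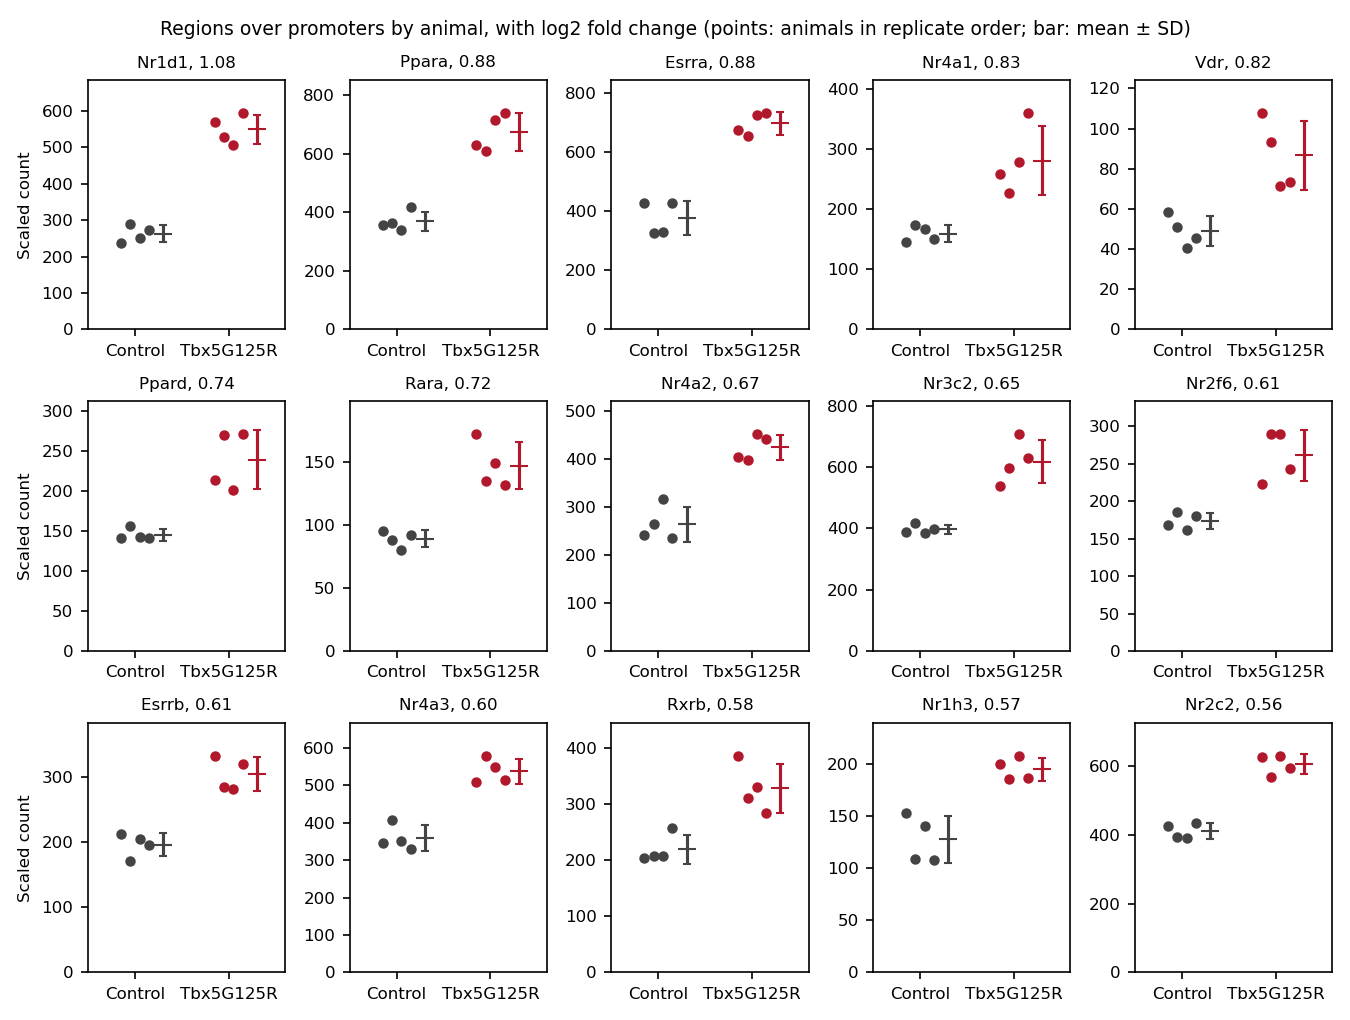
Scaled counts of the 15 regions over receptor promoters in each animal, ordered by log2 fold change (given above each panel), with mean ± SD (n = 4 animals each). All 4 Tbx5G125R animals lie above all 4 controls in every panel, from 1.08 at Nr1d1 down to 0.56 at Nr2c2.

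Receptor genes lie together at a pair of places in the mouse genome. On chromosome 11, Thra, Nr1d1 and Rara fall within 234.2 kb, which held 13 listed regions, all gained, 10 of them assigned to these receptors. On chromosome 14, Rarb, Thrb and Nr1d2 fall within 1808 kb with 6 regions, all assigned to them, of which 5 were gained and the 1 near Thrb was lost. Changes there ran from -1.18 to 2.46, against 0.59 to 1.18 on chromosome 11.

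The shift of each animal was taken as its median deviation from the mean of its genotype. Over the gained receptor regions it was between -0.06 and 0.07 on the log2 scale in all 8 animals, highest in control animal 2 and lowest in Tbx5G125R animal 4. Over all gained regions it was between -0.004 and 0.014. Animals were scaled by the median ratio over a table of mostly gained regions, so small shifts there follow from the scaling. Over the 6 lost receptor regions it ran from -0.23 in control animal 2 to 0.26 in control animal 3, beside -0.112 to 0.108 over all lost regions. Among Tbx5G125R animals the highest value at a gained region fell to animal 1 in 20 regions, animal 3 in 15, and animals 2 and 4 in 12 each.

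Marker genes of cell types were looked up in the same way. Because the table holds changed regions alone, a listed marker shows a change and does not check the sort. All 11 cardiomyocyte markers, such as Myh6 and Ttn, had listed regions, 43 gained (88.4% of the table was) and 11 lost. Of the lost ones 10 were at Ryr2, which also had 7 gained regions, and 1 was at Pln. Of the other cell types, 2 of 7 fibroblast genes had 3 gained regions, 2 of 6 endothelial genes had 10 gained ones, 9 at Kdr, and 1 of 5 smooth muscle or pericyte genes had 1. The median change was 1.01 at fibroblast genes and 1.28 at endothelial genes (0.94 to 1.94 at Kdr), against 0.76 over all gained regions. At cardiomyocyte genes it was 0.71, with lost regions included. The summed scaled counts at endothelial genes were 518 to 645 in controls and 1295 to 1349 in Tbx5G125R, those at fibroblast genes were 293 to 341 and 496 to 563, and no region was listed at the 5 leukocyte genes or the 7 epicardial, neural and fat genes. Every endothelial and fibroblast region summed was a gained one, so the rise of these sums restates those gains and adds nothing to them. The sums at cardiomyocyte genes were 9545 to 9846 in controls and 15310 to 17140 in Tbx5G125R. The part of other cell types in the receptor results was not tested.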

How the data were processed

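ATAC-seq was done on PCM1-sorted nuclei of 8 animals in 10 libraries. The submitters' processing notes name BWA, bedtools, DESeq2 and mm10, and give no versions. Read filters, duplicate removal and any shift for the transposase are not given in the sources used here, and neither is whether the counts cover a whole region or the 500-base bin it was merged from, so a level in one region is not directly comparable with that in another of different width. The authors deposited 1 table of 10010 regions with raw counts per library. In 4 libraries the deposited values are estimated counts in form alone, since 26 zeros were written as 0.1, and these were set to 0. The deposited group columns, a signal per genotype, are geometric means of raw counts. The authors' deposited log2 fold changes and adjusted p-values of the same comparison are not printed, and the p-values were not used.

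Libraries of 1 animal were summed (chi-square per degree of freedom 1.62 to 1.67 between them, 2.01 to 4.29 between animals). Animals were scaled within a genotype by the median ratio. A single offset between the genotypes was matched to the deposited fold changes (residual SD 0.033, 99.6% of variance). It moved by 0.03 when fitted on gained regions and by -0.18 on lost ones, and an offset taken from the counts alone, midway in the gap between gained and lost regions, differed by 0.03. Calls on this scale are therefore not independent of the authors' own. edgeR 4.0.16 (R 4.3.3) quasi-likelihood tests compared 4 with 4 animals, Benjamini-Hochberg adjusted over all regions at 0.05. SE is derived from the test statistic. The design had named limma for the case of values that were not counts, which did not arise. Tested on 10010 simulated regions with 200 changed, this comparison recovered 100% at a log2 change of 1, 98% at -1, 62% at 0.5 and 40% at -0.5, with 5.06% of calls false. The simulated regions were mostly unchanged and were tested with the size factors that made them. These rates therefore do not carry over to a table selected for change, or to the choice of scale between the genotypes. P-values set the difference between the genotypes against the spread between animals, all from PCM1-sorted nuclei.

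Alternatives were DESeq2 1.42.0, limma 3.58.1 (pseudocounts 0.1, 1 and 5), size factors from the table median, TMM, no offset, the gap midpoint, a mean scaled count of 50, the first library of an animal, the replicate number as a block, an adjusted p of 0.01, leaving out each animal, and other assignment limits. Spans came from RefSeq GRCm38.p6, the assembly of mm10, matched by symbol, and all 46 genes were found. Values per animal are given for the largest change of a gene, lost regions and regions at promoters or within 1 kb of an end, 40 in all, with some summarised. Up to 4 genes of each other list are named, those with the most regions, and some of these are not reported here. The genes, lists and motifs were chosen with earlier results of these data known. Sequences of the regions themselves were not used here.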

Additional observations from a re-analysis of the deposited data

Results flagged for a closer look

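In 5 of 80 groups of 4 animals (the 40 regions whose values in each animal were considered, in 2 genotypes), 1 animal lay far from the others by Dixon's criterion (a gap that takes up most of the range of the group), and chance flags about 1 group in 20. At the most changed Rarb region Tbx5G125R animal 2 was at 138, below the other mutants at 198 to 204. At the Nr3c2 region of chr8:76927501-76928000 the same animal was at 30.8, above the others at 14.5 to 16.0. Tbx5G125R animal 3 was at 128 in the Nr6a1 region, below 157 to 160 in the rest. Control animal 2 was at 156 over the Ppard promoter, above 141 to 142, and control animal 4 was at 257 over the Rxrb promoter, above 204 to 208. No animal appeared in more than 2 of the 5.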

How the results depend on the processing

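The scale between the genotypes had the largest effect. With size factors from the table median, gained receptor regions fell from 59 to 4 and the median of all receptor regions from 0.74 to 0.047, and with TMM to 4 and 0.034. In the whole table gained regions then numbered 856 and 805 in place of 8846. Without an offset the receptor median was 0.64. The sign reversed with the table median and with TMM at the regions of Esr2 (-0.016 and -0.030), Esrrb (-0.084 and -0.098), Nr0b2 (-0.020 and -0.035), Nr1d1 with Thra (-0.11 and -0.12), Nr1h3 (-0.13 and -0.14), Nr2c2 (-0.14 and -0.15), Nr2f6 (-0.082 and -0.096), the Nr3c2 promoter (-0.045 and -0.059), Nr4a2 (-0.020 and -0.035), the Nr4a3 promoter (-0.092 and -0.11), Nr6a1 (-0.13 and -0.14), Rarg (-0.039 and -0.053) and the Rxrb promoter (-0.11 and -0.12), and at Thra with TMM alone (-0.013). None of these was called on those scales, and 22 gained receptor regions in all were below 0 with TMM.

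The filter at a mean scaled count of 50 left 0 lost receptor regions, and 343 of 1164 lost regions in the table, since such regions have few reads. With limma the second Esrrg region was not called (adjusted p 0.103 to 0.154 over pseudocounts). Leaving out each animal gave 59 gained receptor regions each time, 5 to 6 lost ones, and 8845 to 8846 gained and 1132 to 1164 lost in the table, and the receptor median ran from 0.69 to 0.77. The 2 genotypes share replicate numbers. In their deviations, animals of the same number correlated at 0.173, -0.00074, 0.0692 and 0.029, and those of different numbers at -0.132 to 0.111. Whether the same number stands for a shared litter or run was not tested. With the replicate number as a block, 59 gained and 6 lost receptor regions were called, and 8846 and 1164 in the table. With all annotated genes as candidates, and not protein-coding genes alone, 51 gained and 4 lost receptor regions remained, at 28 genes. The 2 lost regions outside a span, those of Thrb and Nr2f1, were then assigned to no receptor gene. The other alternatives moved no count by over 1.5 times.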
